A study of Rattus norvegicus with 4 samples.

Results

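The transcripts of 5 genes that drive or restrain cell division were followed in rat fracture callus: Myc (ENSRNOG00000004500), Ccnd1 (ENSRNOG00000020918), Cdk1 (ENSRNOG00000000632), Pcna (ENSRNOG00000021264) and Cdkn1a (ENSRNOG00000000521). They were chosen by Ensembl identifier, and all 5 were found among the 20174 gene probes of the array. The deposited files hold the identifiers only, and the reference table used here lists no Ensembl identifiers, so the symbols are those given with the selection.

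Callus, the soft and later bony tissue that bridges a fracture, was taken from male Sprague-Dawley rats that were 12 weeks old, and 4 groups were measured: diabetic callus on day 11 after fracture, control callus on day 11, diabetic callus on day 5 and control callus on day 5. Diabetic rats had received 1 intravenous dose of 40 mg/kg streptozotocin, which destroys the pancreatic beta cells, and had blood glucose over 300 mg/dl; control rats had received sodium chloride and had normal glucose. In every group a closed transverse fracture was made in the right femoral shaft after a K-wire had been placed in the marrow canal. Tissue of 5 animals per group was pooled and hybridised to 1 array, so no value below carries an error between animals, and no difference between 2 arrays was tested. In such a mixed tissue, fewer cells of a type and less RNA per cell cannot be told apart, and the identity of the callus was not checked against marker genes because those could not be matched to identifiers.

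Cells enter division through cyclin D1, encoded by Ccnd1, which activates its partner kinases in G1, and Myc is a transcription factor that promotes growth and entry into the cycle. Pcna is the sliding clamp that holds DNA polymerase on the template during S phase, and Cdk1 is the kinase that drives cells into mitosis. Cdkn1a encodes p21, an inhibitor of cyclin-dependent kinases that is induced by p53 and that also binds the Pcna protein. In callus, division of periosteal progenitors and chondrocytes builds the soft repair tissue before cartilage matures and is replaced by bone.

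Each gene had 1 spot per array with no bad flag. All 20 signals lay above the limit set on blank spots and above the one set on negative control spots, and none of the 5 genes was null in the authors' deposited table. The lowest signal was that of Cdk1 in diabetic callus on day 11, at 92.3 intensity units over the blank-spot mean, while the limit lay 1.42 units over that mean on the same array. Across the arrays, 78.6% to 81.2% of 20161 usable genes exceeded the limit. The 24 repeat spots of 1 positive control probe varied by 7.98% to 11.8% on an array (SD over mean) and the 24 of the other by 16.9% to 28.8%, which measures error between spots only. Levels below are quantile-normalized intensities to which an offset of 50 was added, and folds are on that scale, which understates changes of dim spots. Levels of different probes are not comparable with each other.

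The genes of the list did not shift as a block in diabetic callus. Cdk1 and Pcna, which act in mitosis and DNA replication, were lower in diabetic than in control callus on both days in these values. Ccnd1 was higher on both days, Myc was higher on day 5 and near control on day 11, and Cdkn1a differed little. When the local background column was used instead, Cdk1 and Ccnd1 were both at 0.02 on day 5 (log2), and on day 11 Myc was at -0.50 and Cdkn1a at -0.71. On day 11, 1 of 5 genes, Pcna, was 2-fold apart, against 4.27% of 16732 genes tested. On day 5, 0 of 5 were, against 1.51% of 17030 genes. Bright genes reached 2-fold more often. In the brightest of 4 signal bins, which holds Myc, Ccnd1, Pcna and Cdkn1a, 10.1% of genes did on day 11 and 4.3% on day 5. In the third bin, which holds Cdk1, 5.76% and 1.53% did.

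**Figure D1:**
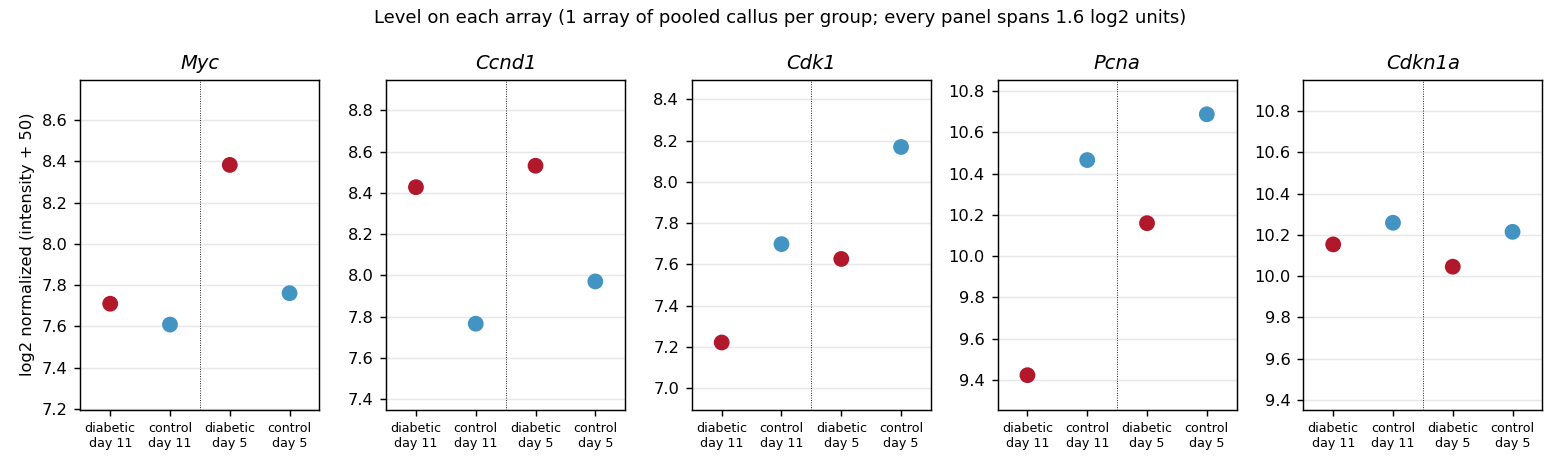
Level of each gene on each of the 4 arrays, as log2 of the normalized intensity plus 50; each point is 1 array of pooled callus, red for diabetic and blue for control, and every panel spans 1.6 log2 units so that distances can be compared between panels. Cdk1 and Pcna are lower and Ccnd1 is higher in diabetic callus on both days in these values, whereas Cdkn1a stays within a range of 0.21.

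Myc had a level of 209 in diabetic and 195 in control callus on day 11, and of 334 in diabetic and 217 in control callus on day 5. The diabetic array of day 5 stood above the other 3, which lay close together. The diabetic minus control log2 difference was 0.10 on day 11 and 0.62 on day 5, a 1.54-fold higher level in diabetic callus on day 5. A difference at least as large and positive was found for 1.85% of all genes tested on day 5 and for 5.19% of those in the brightest of 4 signal bins, to which Myc belongs. On day 11, 24.9% of all genes were at least that far above control. The sign on day 11 depended on the background, since the log2 difference was -0.50 when the local background column was used in the correction. The day 5 difference was then 1.10, past 2-fold.

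Ccnd1 had a level of 344 in diabetic and 218 in control callus on day 11, and of 370 in diabetic and 251 in control callus on day 5. Both diabetic arrays were above both control arrays. The log2 difference was 0.66 on day 11 and 0.56 on day 5, corresponding to 1.58-fold and 1.48-fold higher levels in diabetic callus. Among all genes, 4.3% on day 11 and 2.38% on day 5 were at least as far above control, and within the brightest bin, which holds Ccnd1, 10.3% and 6.34% were. Normexp with the local background gave a similar difference on day 11, at 0.66, and one close to 0 on day 5, at 0.02.

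Cdk1 had a level of 149 in diabetic and 208 in control callus on day 11, and of 197 in diabetic and 288 in control callus on day 5. The diabetic array was the lower one on each day, and the diabetic array of day 5 was near the control array of day 11. The log2 difference was -0.48 on day 11 and -0.54 on day 5, or 1.39-fold and 1.46-fold lower in diabetic callus. Of all genes, 6.75% on day 11 and 2.99% on day 5 were at least as far below control, and in the third of the 4 signal bins, which holds Cdk1, 9.83% and 3.97% were. Under the local background Cdk1 was lower on day 11, at -0.84, but not on day 5, at 0.02.

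Pcna had a level of 686 in diabetic and 1414 in control callus on day 11, and of 1144 in diabetic and 1650 in control callus on day 5. Both diabetic arrays were below both control arrays, and the diabetic array of day 11 was the lowest of the 4. The log2 difference was -1.04 on day 11 and -0.53 on day 5, or 2.06-fold and 1.44-fold lower in diabetic callus. Of all genes tested on day 11, 2.1% were lower by 2-fold or more, and 1.96% were as low relative to control as Pcna, which 3.17% were on day 5. Within the brightest bin, which holds Pcna, these shares were 4.45% on day 11 and 7.37% on day 5. In the authors' deposited table Pcna had a value of 363 in diabetic and 741 in control callus on day 11, and of 699 in diabetic and 952 in control callus on day 5. Pcna was no longer 2-fold apart on day 11 under the local background, at a log2 difference of -0.37, and was at -0.73 on day 5.

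Cdk1 and Pcna had the most similar courses within the list in the values as reported. The Euclidean distance between their log2 levels over the 4 arrays, each centred on its own mean, was 0.40, and 56 of 14681 other genes above the limit on all arrays lay nearer to Pcna than Cdk1 did. Seen from Cdk1, 349 genes lay nearer than Pcna. The closest of all genes to Pcna was at 0.096, and the median gene was at 0.97. Ccnd1 and Pcna were the farthest pair, at 1.47, and Ccnd1 and Myc were 0.48 apart. These distances rest on 4 arrays and describe them only, and they were not computed under the local background. There the diabetic minus control log2 differences of Cdk1 and Pcna were 0.02 and -0.73 on day 5, and -0.84 and -0.37 on day 11.

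Because the levels of Cdk1 and Pcna were lower together in diabetic callus in the values as reported, their promoters are shown, from RefSeq on the rat build GRCr8. Under the local background Cdk1 was not lower on day 5, at a log2 difference of 0.02. The Cdk1 window is chr20:19265043-19265342 on the plus strand and the Pcna window is chr3:139955771-139956070 on the minus strand, each running from 250 bases before to 50 bases after the annotated gene start. Capitals mark matches on either strand to CCAAT, the core bound by NF-Y, to TTTGAA, the cell-cycle homology region of mitotic genes, to GGCGGG, the core bound by Sp1, and to TTGGCGC, an E2F-type core.
Cdk1: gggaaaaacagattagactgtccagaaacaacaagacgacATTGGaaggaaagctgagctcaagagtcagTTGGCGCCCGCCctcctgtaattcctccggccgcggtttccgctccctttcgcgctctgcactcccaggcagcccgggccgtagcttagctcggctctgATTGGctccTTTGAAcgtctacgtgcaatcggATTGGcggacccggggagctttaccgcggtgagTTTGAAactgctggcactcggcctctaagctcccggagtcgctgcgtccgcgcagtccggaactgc
Pcna: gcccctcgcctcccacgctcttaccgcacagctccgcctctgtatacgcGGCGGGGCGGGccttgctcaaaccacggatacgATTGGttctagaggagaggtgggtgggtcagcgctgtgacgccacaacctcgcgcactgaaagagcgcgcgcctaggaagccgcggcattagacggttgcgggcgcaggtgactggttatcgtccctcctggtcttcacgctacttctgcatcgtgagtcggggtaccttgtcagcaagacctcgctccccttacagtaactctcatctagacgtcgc
The Cdk1 window held 3 matches to CCAAT, 2 to TTTGAA, 1 to GGCGGG and 1 to TTGGCGC, of which the last 2 share 1 base. The Pcna window held 1 match to CCAAT and 2 to GGCGGG, which share 1 base, and no match to the other two. Of all 33469 promoter windows of this length, 37.5% held CCAAT, 18.3% TTTGAA, 32.0% GGCGGG and 2.26% TTGGCGC. The CCAAT core and GGCGGG were the motifs that both windows held, and each is common among promoters. A match is a run of letters and was not tested as a binding site.

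Cdkn1a had a level of 1139 in diabetic and 1225 in control callus on day 11, and of 1057 in diabetic and 1188 in control callus on day 5. All 4 arrays lay close together, and 56.4% of 14682 genes above the limit on every array had a wider range. The log2 difference was -0.11 on day 11 and -0.17 on day 5, and 25.8% and 14.8% of all genes were at least as far below control. In the authors' deposited table the log2 difference was 0.00 on day 11 and -0.07 on day 5. Under the local background it was -0.71 on day 11, where the local background at the Cdkn1a spot was 571 on the diabetic and 253 on the control array.

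**Figure D2:**
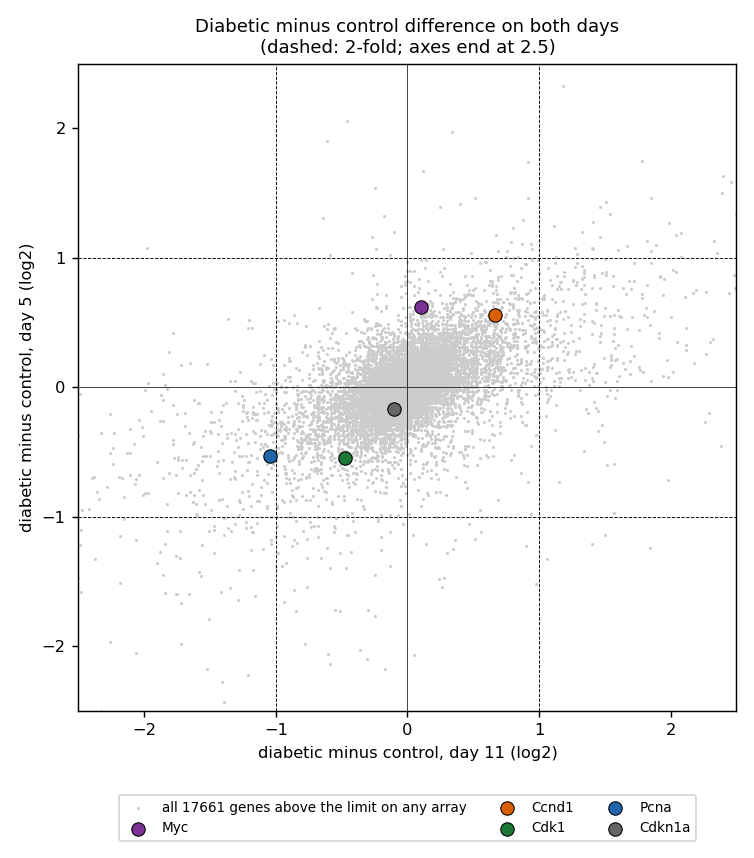
Diabetic minus control log2 difference on day 11 (horizontal axis) against day 5 (vertical axis) for 17661 genes above the limit on any array (grey) and the 5 cell cycle genes (coloured); dashed lines mark 2-fold, and 104 genes lie outside the axes. Pcna and Cdk1 lie in the lower left, Ccnd1 in the upper right, Myc near 0 on day 11, and Cdkn1a near the centre.

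From the log2 SD of the repeat spots, the error of a difference between 2 single spots was 0.19 for the first positive control probe and 1.14 for the second. The differences between diabetic and control callus of Myc on day 5 and of Ccnd1, Cdk1 and Pcna on both days were larger than the first, and none of the 5 genes had one larger than the second. Across the arrays the log2 SD of the second probe ran from 0.372 to 1.23, while its SD over mean was 16.9% to 28.8%. That log2 SD is larger than such a share would give for evenly spread spots, so 1.14 is a wide yardstick. The control spots were far brighter, at array means of 10321 to 15199 against 131 to 1721 for the spots of the 5 genes. Their SDs were taken before normalization and without the offset, so neither error was measured at the brightness or on the scale of the 5 genes. The spread over genes of similar brightness also gives a scale for these differences. In the brightest bin, which holds Myc, Ccnd1, Pcna and Cdkn1a, the SD of the diabetic minus control log2 difference was 0.75 on day 11 and 0.47 on day 5. In the third bin, which holds Cdk1, it was 0.55 and 0.34. Pcna on day 11, and Myc, Ccnd1, Cdk1 and Pcna on day 5, lay farther from 0 than the SD of their bin. The genes printed in the same block of the slide as each of the 5, between 679 and 741 per block, had median differences from -0.03 to 0.02 in all 4 comparisons.

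An additive limma model of condition and day over all 4 arrays, with 1 residual degree of freedom per gene, tested the diabetes effect averaged over the days. The change of the effect between the days gave each gene its own error, which eBayes then moderated toward a value estimated over all genes. The SEs and p-values below rest on this moderated error. Pcna had an averaged log2 difference of -0.79 (SE 0.172) with a Benjamini-Hochberg adjusted p of 0.299 in limma. Cdk1 had -0.51 (SE 0.0458) and Ccnd1 had 0.61 (SE 0.052), both at an adjusted p of 0.275 in limma. Both kept their direction on 2 of 2 days in the values as reported, but under the local background both were at 0.02 on day 5. An SE was small here where the differences of the 2 days were alike, and spread between animals or hybridisations was not measured. With the trend and robust options of eBayes the SE was 0.118 for Cdk1 and 0.128 for Ccnd1. For Myc the averaged difference was 0.36 (SE 0.174) and for Cdkn1a it was -0.14 (SE 0.0455), with adjusted p of 0.477 and 0.369 in limma. Thus 0 of the 5 genes passed a threshold of 0.05, as did 0.0% of all 17661 genes. Unadjusted p in limma was under 0.05 for 2659 of 17661 genes, so such a value was common in this fit. Ccnd1, Cdk1 and Pcna were among these genes, at 0.00375, 0.00426 and 0.0325 in limma. When eBayes was run with trend and robust, 3 genes passed, none of them on the list. Over the 5 alternatives the adjusted p in limma ranged from 0.237 to 0.998 for Cdk1, from 0.219 to 0.991 for Ccnd1 and from 0.25 to 0.764 for Pcna.

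The diabetes effect on day 11 was also set against that on day 5, and the outcome depended on the background used. The diabetic minus control log2 difference of day 11 less that of day 5 was -0.52 for Pcna, which was farther below control on day 11, and -0.52 for Myc, which was closer to control on day 11. Changes at least this large in either direction were found for 8.68% and 8.54% of 17661 genes. The change was 0.10 for Ccnd1, 0.07 for Cdk1 and 0.06 for Cdkn1a. None of the 5 genes changed by 1 or more, against 2.66% of all genes. Under the local background Myc passed that size, at -1.60, and the change was 0.36 for Pcna, which was then farther below control on day 5, 0.65 for Ccnd1, -0.86 for Cdk1 and -0.52 for Cdkn1a. With 1 array per group this change has no error and was not tested.

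From day 5 to day 11 Myc, Ccnd1, Cdk1 and Pcna were lower on the later day in both conditions, by less than 2-fold each, except that Ccnd1 in diabetic and Cdk1 in control callus turned sign under the local background. In diabetic callus 0 of 5 genes were 2-fold apart, against 1.35% of 16803 genes, and in control callus 0 of 5 were, against 1.68% of 16893 genes. The diabetic day 11 array entered this comparison as well as that with control callus, so the low Pcna level on it counts in both.

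Pcna was 1.67-fold lower on day 11 than on day 5 in diabetic callus, a log2 difference of -0.74, and 1.17-fold lower in control callus, at -0.22. A decrease as large was found for 0.797% of genes in diabetic and 10.9% in control callus, and within the brightest bin, which holds Pcna, for 2.5% and 23.0%. Under the local background the sizes were the other way round, at -0.17 in diabetic and -0.53 in control callus. Myc was 1.59-fold lower in diabetic callus, at -0.67, and 1.11-fold lower in control callus, at -0.15. In the authors' deposited table Myc in diabetic callus had a value of 88.6 on day 11 and 178 on day 5, which is past 2-fold, and under the local background the log2 difference was -1.63.

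Cdk1 was lower by similar amounts in both conditions, at -0.41 in diabetic and -0.47 in control callus, which 3.84% and 3.56% of genes matched or exceeded. Within its signal bin these shares were 4.88% and 4.29%. Its difference in control callus had the other sign under the local background, at 0.18. Ccnd1 differed little between days, at -0.10 in diabetic and -0.21 in control callus, and in diabetic callus it was at 0.29 under the local background. Cdkn1a was at 0.11 in diabetic and 0.04 in control callus, and both turned sign in the authors' deposited table, at -0.01 and -0.08. Cdkn1a in control callus was at 0.58 under the local background.

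**Figure D3:**
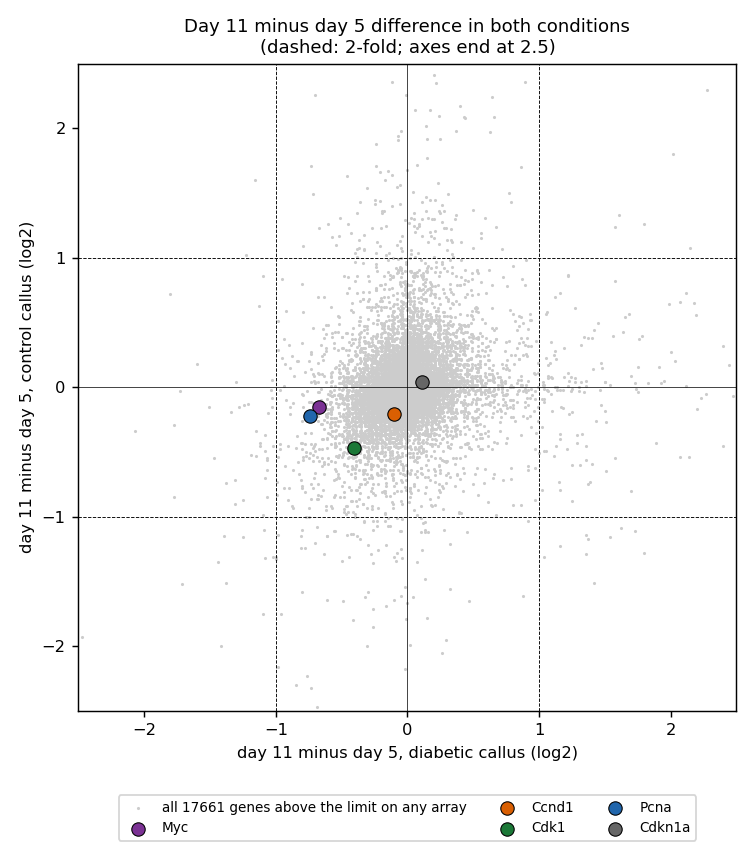
Day 11 minus day 5 log2 difference in diabetic callus (horizontal axis) against control callus (vertical axis) for 17661 genes (grey) and the 5 cell cycle genes (coloured); dashed lines mark 2-fold, and 47 genes lie outside the axes. Pcna and Myc lie farther from 0 in diabetic than in control callus, Cdk1 is about equally low in both, and Cdkn1a is close to 0.

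For the day effect averaged over conditions, the additive limma model gave Cdk1 a log2 difference of -0.44 (SE 0.0458) and an adjusted p of 0.525. Pcna had -0.48 (SE 0.172), Myc -0.41 (SE 0.174), Ccnd1 -0.15 (SE 0.052) and Cdkn1a 0.08 (SE 0.0455), with adjusted p of 0.593 to 0.731 in limma. No gene of the list passed, and 0.0% of 17661 genes did, while 1612 genes had an unadjusted p under 0.05. Over the alternatives the adjusted p of the 5 genes in limma was 0.515 or higher.

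**Figure D4:**
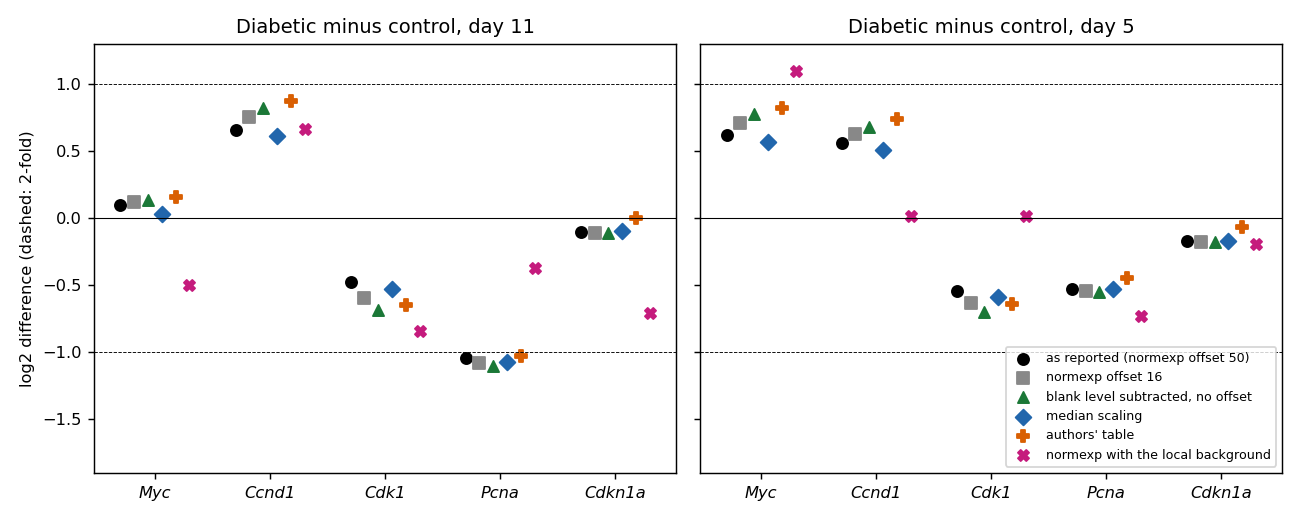
Diabetic minus control log2 difference of each gene on day 11 (left) and day 5 (right) under 6 ways of making the values; dashed lines mark 2-fold. Without the local background each gene keeps its side of 0 on both days, except for Cdkn1a on day 11 at 0.00 in the authors' table, with ranges from -1.10 to -1.03 for Pcna and 0.61 to 0.87 for Ccnd1 on day 11. Values with the local background stand apart for several genes.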

How the data were processed

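Fracture callus RNA was measured on 4 single-colour arrays (Cy5), 1 per condition and day, each from tissue pooled from 5 animals per the labels' protocols. Per the file headers, each array file gives for 27456 spots a median intensity and a local background intensity, both at 635 nm, and flags from 3 scanner gains. The scanner, the probe annotation and the way the gains were merged are not stated in the labels or headers. A second file holds processed intensity values made by the authors, on a linear scale; each column was proportional to the spot median after removal of the blank-spot mean and had a median of 24.96 to 24.99 over the genes used here.

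Background was corrected by normexp (limma 3.58.1, R 4.3.3) with an offset of 50 and the blank-spot mean of the array as background, because the local background rose with its own spot (r of log values across spots 0.981 to 0.99). Control spots were left out, as were 13 gene probes flagged bad on an array, and the remaining 20161 genes were quantile normalized and set on the log2 scale. A gene was above the limit if its spot was more than 2 SD brighter than the mean blank spot, with the blank spots trimmed by 5% at each end, and entered a comparison if above the limit on at least 1 of its arrays. Genes were called apart at 2-fold without a p-value. The additive fit used lmFit and eBayes, with Benjamini-Hochberg adjustment over 17661 genes and a threshold of 0.05. Its estimates were checked on simulated data with the same noise in every gene, which does not show that its p-values hold in these data. Precision is set by there being 1 array per group. The alternatives changed the background, the offset, the scaling, the filter on dim genes and the source of the values. The genes, lists and motifs were chosen with earlier results of these data known, and the motifs with the sequences in view. The named genes are the 5 chosen ones. Further lists of cell cycle, p53 and Myc target genes and cell type markers, given by symbol, were not applied, and no neighbouring gene is named, because identifiers could not be paired with symbols.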

Additional observations from a re-analysis of the deposited data

Results flagged for a closer look

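Spots outside the comparisons were often brighter than the blank-spot limit, which 6.85% to 7.64% of blank spots exceeded. On the diabetic day 11 array 69.8% of 96 negative control spots did, on the control day 11 array 47.6% of 809 spots marked as having no probe, and on the control day 5 array 71.8% of 521 QC probes. Each of these is the highest share among the 4 arrays. The 5 cell cycle genes were above a limit set on the negative controls on all 4 arrays.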

How the results depend on the processing

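No paired analysis was possible because no group has replicates to pair by number; the additive fit compares the conditions within each day. Of 140 log2 differences of the 5 genes recomputed under 7 alternatives, 118 moved by less than 0.19 and 22 by more, 15 of them with the local background. The 0.19 is the error of a difference between 2 spots of the first positive control probe, and all 140 moved by less than the 1.14 of the second. The latter is a wide yardstick. Alternatives that changed only the filter on dim genes could not move these values, and their unmoved values are counted in the 118 and the 140. Of the 20 differences as reported, 7 turned sign under an alternative, 4 of them with the local background, while the 1 past 2-fold, Pcna on day 11, did not. With the local background, 0 of the 5 genes were 2-fold apart between diabetic and control callus on day 11, 1 on day 5 and 1 between the days in diabetic callus, and 1, Myc, changed its diabetes effect by 1 or more. By the authors' values, 1 was 2-fold apart between the days in diabetic callus. Over all genes, the 2-fold counts were 714 on day 11 and 257 on day 5 between the conditions, and 227 in diabetic and 283 in control callus between the days. With the blank level subtracted and no offset they were 2797, 1556, 1430 and 1466 in the same order, with an offset of 16 they were 1150, 407, 360 and 471, and from the authors' values 2293, 1289, 1076 and 1255. With the local background they were 1015 on day 11, 624 on day 5, 861 in diabetic and 554 in control callus. The averaged diabetes effect was called for 3 genes with limma's trend and robust options and for 0 otherwise. The higher and lower calls on day 5 numbered 91 and 166 as reported, but 362 and 262 with the local background. Between the days in diabetic callus they numbered 174 and 53, but 375 and 486 with the local background and 572 and 504 from the authors' values, and in control callus 163 and 120, but 485 and 770 from the authors' values. Each group is a single array, so the spread between animals or hybridisations was not measured.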
